A study of Mus musculus with 93 samples.

Results

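The genes described here carry out glucose production in the liver or the hepatocyte's response to insulin: G6pc, Slc37a4, Slc2a2, Pck1, Fbp1, Pcx, Ppargc1a, Foxo1, Insr, and Irs2. They were picked by name for these roles, and they are 10 of the 53465 genes in the count table. Liver RNA was sequenced from 93 male mice of 7 inbred strains, of which C57BL/6J, 129S1/SvImJ, A/J, and DBA/2J are domesticated and CAST/EiJ, PWK/PhJ, and WSB/EiJ are wild-derived. From 6 wk of age every mouse was kept at 30°C, which is thermoneutrality (TN) for a mouse, and from 7 wk of age it ate either a western diet (WD), with 40% of energy from fat, or a control diet (CD), with 10% of energy from fat. WD also had a smaller share of energy from carbohydrate than CD, while the share from protein was equal. After 17 wk on the diet, when the mice were 24 wk old, the livers were taken following a 4 h fast. The 14 groups held 5 to 8 mice each: on CD and WD, there were 8 and 8 C57BL/6J, 6 and 7 DBA/2J, 5 and 6 A/J, 7 and 6 129S1/SvImJ, 6 and 6 WSB/EiJ, 7 and 8 CAST/EiJ, and 6 and 7 PWK/PhJ mice. Each replicate was 1 mouse, and the mice of a strain came from 2 cohorts, or 3 in CAST/EiJ.

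The liver makes glucose from lactate, amino acids, and glycerol when food is short. Pyruvate carboxylase (Pcx) and phosphoenolpyruvate carboxykinase (Pck1) start the path from pyruvate, fructose-1,6-bisphosphatase (Fbp1) drives it past the committed step of glycolysis, and glucose-6-phosphatase (G6pc), fed by the glucose-6-phosphate transporter (Slc37a4), frees glucose that can leave the cell through GLUT2 (Slc2a2). Insulin acts on the hepatocyte through its receptor (Insr) and the adaptor IRS2 (Irs2) to activate AKT, which keeps the transcription factor FOXO1 (Foxo1) out of the nucleus. FOXO1 and its coactivator PGC-1α (Ppargc1a) promote transcription of G6pc and Pck1 during fasting, and Irs2 itself is repressed by insulin.

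The libraries had 40020424 to 49894856 reads on genes, with a median of 46618609, and all 10 genes passed the filter on low counts that left 19110 genes. Hepatocyte identity was plain, because Alb, which encodes albumin, had 1680430 to 7974278 reads in every mouse, and none of the markers of other cell types was at 0 in any mouse apart from the adipocyte genes Adipoq, Lep, and Retn. The reads of all strains were mapped to the C57BL/6J genome, so that for a difference between strains on CD a change in expression and a change in how well reads map cannot be told apart. The cohorts of WSB/EiJ held no other strain, and no cohort held every strain. For such differences, strain and cohort thus cannot be fully told apart. In bulk tissue, fewer cells of a type and less RNA per cell cannot be told apart either. The median of the summed CPM of the hepatocyte markers was lower on WD in each strain. For instance, it was 131114 on CD and 85057 on WD in C57BL/6J, and 132397 and 82147 in PWK/PhJ. Alb weighed most in this sum, with a median of 3791477 reads against 432013 for Apoa1, the next marker. Of the 7 such markers tested, WD lowered only Alb in CAST/EiJ, and 4 (DBA/2J and WSB/EiJ) to 6 (A/J) in the other strains. Apob was called in no strain. The part of these markers in the results below was not tested. A few mice stood apart. C57BL/6J CD replicate 2 was the lowest of 8 mice for 8 of the 10 genes, and its summed stellate cell markers were at 883 CPM against 275 to 433 in the other CD mice. In C57BL/6J WD replicate 3, which was the lowest of 8 for 4 genes, these markers were at 1132 CPM against 291 to 744. CAST/EiJ CD replicate 5 was the highest of 7 mice for 5 genes and the lowest for 3, and its cell type markers lay within the range of the other mice of its group. Diet effects of named genes in C57BL/6J and CAST/EiJ whose call was lost without these 3 mice are given with and without them. Differences of a strain from the mean of the other 6 are given with all mice only.

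To show how insulin and hormone signals are known to reach the DNA of these genes, the sequence upstream of the transcription start is given for G6pc, Pck1, and Irs2, whose mRNA is classically repressed by insulin. The sequences are from RefSeq on GRCm38.p6 and end before the first transcribed base of either annotation. The motif found is in capitals: CAAAACA, the core of the insulin response element through which FOXO proteins act, here on the opposite strand as TGTTTTG, or TGACGT, the core of the cAMP response element through which glucagon acts, here on the opposite strand as ACGTCA. The G6pc sequence is chr11:101367466-101367560 on the plus strand, the Pck1 sequence chr2:173152823-173153047 on the plus strand, and the Irs2 sequence chr8:11008930-11009179 on the minus strand.
G6pc: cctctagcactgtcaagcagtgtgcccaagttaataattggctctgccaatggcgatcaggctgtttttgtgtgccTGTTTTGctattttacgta
Pck1: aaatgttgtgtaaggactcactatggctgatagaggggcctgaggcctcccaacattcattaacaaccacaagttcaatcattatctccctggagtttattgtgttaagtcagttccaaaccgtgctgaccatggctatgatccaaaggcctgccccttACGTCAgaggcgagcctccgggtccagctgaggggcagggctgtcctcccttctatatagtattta
Irs2: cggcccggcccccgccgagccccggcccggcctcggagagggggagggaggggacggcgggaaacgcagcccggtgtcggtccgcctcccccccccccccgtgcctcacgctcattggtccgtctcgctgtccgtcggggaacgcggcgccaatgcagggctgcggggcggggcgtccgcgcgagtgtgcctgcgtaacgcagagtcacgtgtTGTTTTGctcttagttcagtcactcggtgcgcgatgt
Of the 10 genes, 9 had at least 1 promoter in the RefSeq table (12 promoters). Both strands of the 250 bases upstream of each start were searched. CAAAACA lay in the promoters of 2 of these genes, 174 bases upstream of the RefSeq start of G6pc and 37 bases upstream of that of Irs2, and in 5.56% of all 32851 promoters. TGACGT lay in the promoters of 3, at 91 bases in Pck1, 50 bases in Ppargc1a, and 61 and 214 bases in 2 of the 3 promoters of Slc37a4, and in 6.47% of all promoters. These matches are descriptions of sequence and were not used in any test.

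On CD, the 10 genes spanned a wide range of levels per length of transcript. Pck1 and Fbp1 had the highest level, with means over the 7 CD groups of 572 and 530 RPKM (reads scaled by exon length and library size), followed by G6pc with 386 RPKM, Pcx with 124, Slc37a4 with 77.9, and Slc2a2 with 74.8. The signalling and regulatory genes were an order of magnitude or more below the enzymes: Insr had a mean of 9.48 RPKM, Irs2 6.69, Foxo1 6.21, and Ppargc1a 1.97. Strain differences on CD passed the test in 9 of the 10 genes (limma-voom F test over 7 strains, adjusted p between 2.7e-17 for Fbp1 and 0.00054 for Ppargc1a), with 93.7% of all tested genes passing it, so this share is near the background. G6pc was the gene that did not (adjusted p = 0.078). Its CD groups ran from 281 ± 125 RPKM (SD, n = 8) in C57BL/6J to 512 ± 134 (n = 7) in 129S1/SvImJ. The largest spread between strains was that of Pck1, from 290.4 ± 125 RPKM (n = 6) in PWK/PhJ to 959 ± 164 (n = 7) in CAST/EiJ, a 3.30-fold range. The 7 CAST/EiJ mice, at 2492 to 3908 CPM, were all above every PWK/PhJ, 129S1/SvImJ, and A/J mouse on CD, and overlapped with the other 3 strains. Irs2 had a 3.03-fold range, from 4.00 ± 1.14 RPKM in PWK/PhJ to 12.1 ± 5.08 in CAST/EiJ. The WSB/EiJ mice, at 50.2 to 78.1 CPM, were above all mice of the 4 domesticated strains and of PWK/PhJ for Irs2, and within the range of CAST/EiJ. For Slc37a4, WSB/EiJ was highest at 112 ± 11.7 RPKM (n = 6) and C57BL/6J lowest at 52 ± 14.2 (n = 8).

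WD-TN lowered more of these genes than it raised. At an adjusted p below 0.05 (limma-voom, over all genes tested), 8 of the 10 genes fell and 1, Pcx, rose in the diet effect averaged over the 7 strains, with 24.5% of all genes called lower and 27.1% called higher. The gene not called was Foxo1 (0.10, SE 0.06, adjusted p = 0.12), which reached 0.12 (adjusted p = 0.032) without the 3 mice that stood apart. Within strains, WD lowered 7 genes and raised none in 129S1/SvImJ (13.6% of all genes were lower and 14.5% higher), lowered 5 and raised none in PWK/PhJ (14.5% and 15.1%), lowered 3 and raised none in CAST/EiJ (9.73% and 9.77%), lowered 2 and raised 2 in C57BL/6J (11.9% and 14.3%), lowered 2 and raised 2 in DBA/2J (7.77% and 10.2%), lowered 1 and raised none in A/J (4.64% and 4.39%), and called none in WSB/EiJ (3.97% and 4.97%). In WSB/EiJ, edgeR and DESeq2 also called 0 of the 10 genes, and 3 (Foxo1, Insr, and Irs2) had an unadjusted limma-voom p below 0.05. Over the 70 tests of a gene in a strain, 20 were lower, 4 were higher, and 52 of the 70 estimates were below 0. In 13 of the 70 the CD and WD mice did not overlap. This was not counted over all genes, so the share to expect is not known. The median log2 fold change of the 10 genes was lowest in 129S1/SvImJ (-0.47), PWK/PhJ (-0.31), and CAST/EiJ (-0.30), and between -0.14 and -0.07 in the other strains, where the median over all genes was between -0.01 and 0.02 in every strain. Of the 24 calls within strains, 23 had the same sign in each cohort of the strain.

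**Figure D1:**
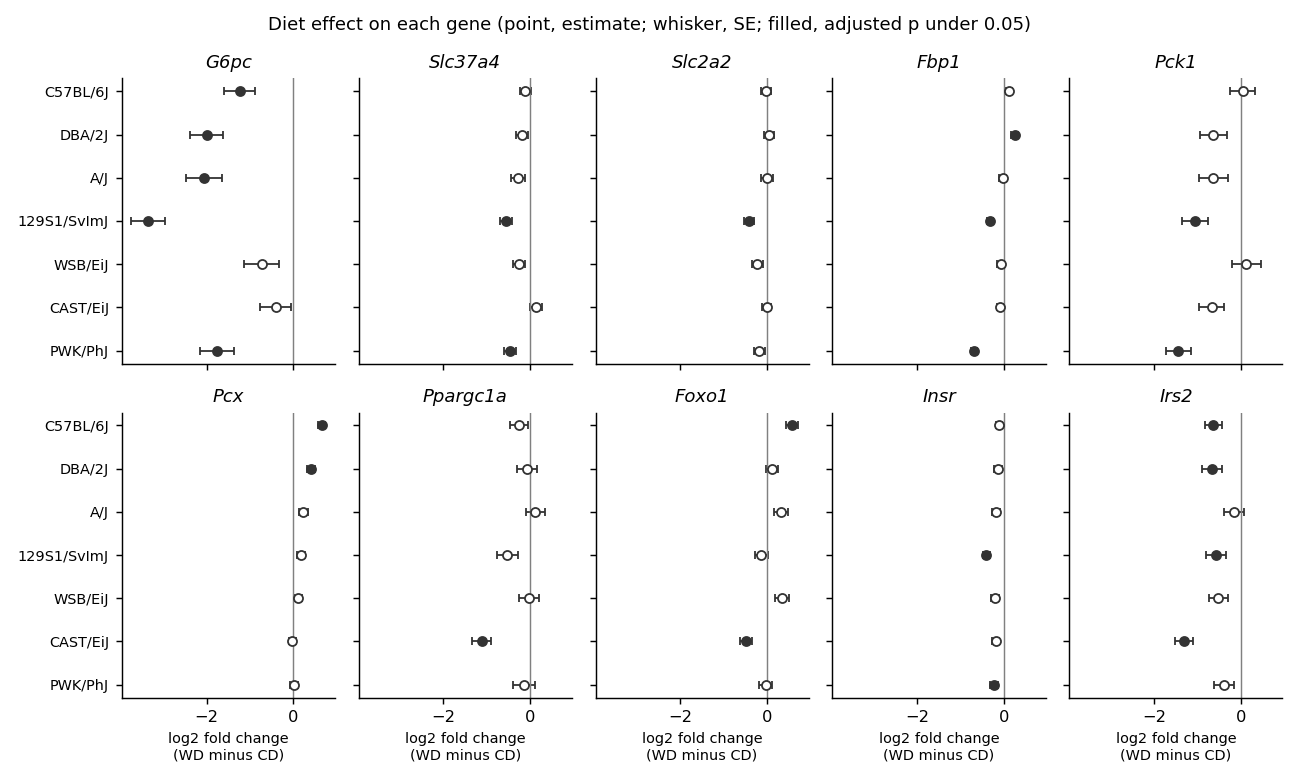
Log2 fold change, WD minus CD (horizontal axis), of each of the 10 genes (panels) in each of the 7 strains (rows). Points are limma-voom estimates, whiskers are SE, and filled points had an adjusted p below 0.05. Of the 24 filled points, 20 lie below 0, and G6pc reaches the lowest value, -3.35, in 129S1/SvImJ.

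The size of the diet effect depended on the strain. An F test of equal diet effects over the 7 strains passed in 8 of the 10 genes, against 37.5% of all genes tested, with the smallest adjusted p for Fbp1 (2.1e-10), Pcx (3.3e-05), G6pc (0.00016), and Foxo1 (0.0002). It did not pass for Slc2a2 (adjusted p = 0.17) and Insr (0.38). Without the 3 mice that stood apart, 7 passed, and Irs2 was lost (adjusted p = 0.076).

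Glucose-6-phosphatase had the largest responses. G6pc (ENSMUSG00000078650, chr11:101367561-101377903, plus strand of GRCm38) encodes the catalytic subunit of the enzyme that makes free glucose. In 129S1/SvImJ, CD mice had 628.8, 1292, and 1569.9 CPM (lowest, median, and highest, as for all groups of more than 5 mice below) and WD mice had 56.9, 106.5, and 409.8. The diets did not overlap, and G6pc fell by 3.35 on the log2 scale (SE 0.38, adjusted p = 1.7e-10), which left 0.098 of the CD level.
It also fell with no overlap in 3 other strains. In A/J, the 5 CD mice had 894, 1015, 437.9, 651, and 814 CPM and the WD mice 112.9, 161.4, and 314.8, a log2 fold change of -2.07 (SE 0.42, adjusted p = 0.0004). In DBA/2J, CD mice had 439.7, 687, and 927 CPM and WD mice 124.5, 162.0, and 237.9, with a log2 fold change of -1.99 (SE 0.38, adjusted p = 5.1e-05). In PWK/PhJ, CD mice had 745, 1179, and 1641 CPM and WD mice 266.7, 324, and 521, with a log2 fold change of -1.76 (SE 0.40, adjusted p = 0.0003).
C57BL/6J overlapped: CD mice had 174, 674, and 1188 CPM and WD mice 128.9, 266.8, and 435.0. Its log2 fold change was -1.24 (SE 0.35, adjusted p = 0.0043), and -1.52 (SE 0.35, adjusted p = 0.00047) without the 3 mice that stood apart.
G6pc was not called in WSB/EiJ and CAST/EiJ, whose mice spread widely on both diets. WSB/EiJ mice had 334, 1096, and 1469.8 CPM on CD and 217, 623, and 1546 on WD (log2 fold change -0.73, SE 0.41, adjusted p = 0.31), and CAST/EiJ mice had 152, 1098, and 1475 CPM on CD and 290.0, 608, and 895 on WD (-0.40, SE 0.36, adjusted p = 0.5). In both strains the ranges of the diets overlapped.
Against the mean diet effect of the other 6 strains, the change of G6pc in 129S1/SvImJ was lower by 1.99 on the log2 scale (adjusted p = 0.0014, among 6.28% of genes that differed this way in this strain) and that in CAST/EiJ was higher by 1.45 (adjusted p = 0.0071, among 14.5%). Within cohorts the difference in log2 CPM ranged from -3.53 to -3.14 in 129S1/SvImJ and from -1.80 to -1.74 in PWK/PhJ. In CAST/EiJ it was 0.39 in the cohort that had 1 CD mouse, and -0.33 and -0.76 in the others.

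**Figure D2:**
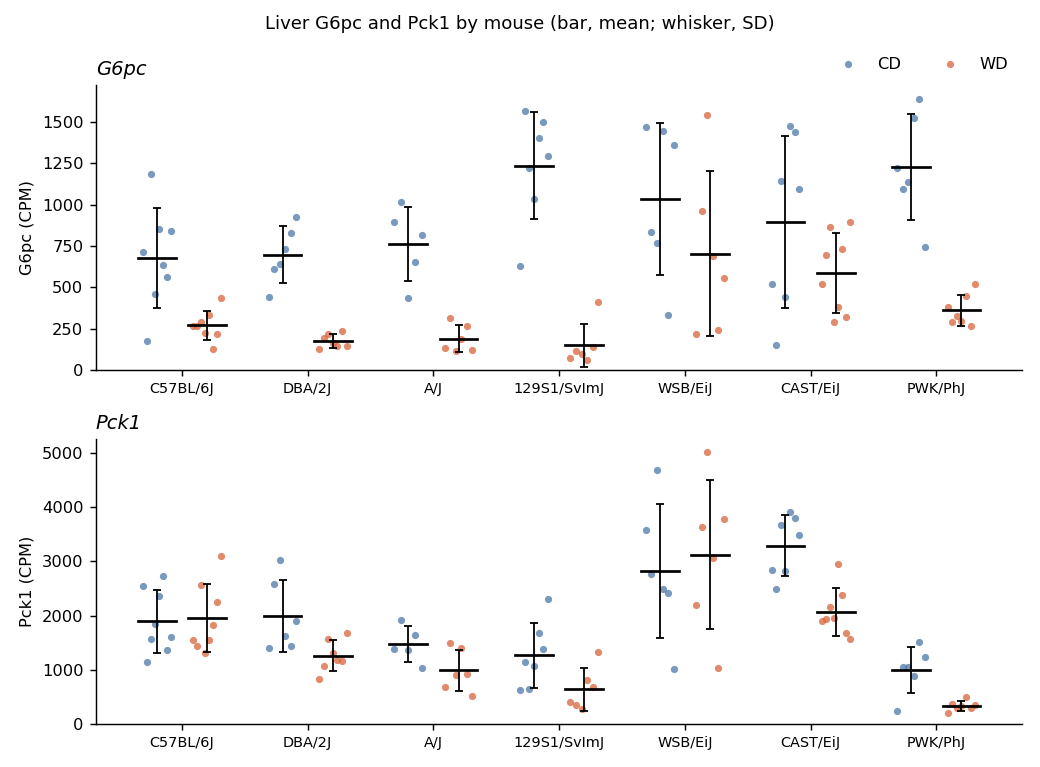
CPM of G6pc and of Pck1 (vertical axis) in each mouse (points) by strain and diet, with the group mean as a bar and the SD as a whisker. G6pc on WD lies below all CD mice in DBA/2J, A/J, 129S1/SvImJ, and PWK/PhJ, while Pck1 overlaps between diets in each strain.

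The 2 carriers that serve the enzyme moved less. Slc37a4 (ENSMUSG00000032114, chr9:44396852-44402968, plus strand) brings glucose-6-phosphate into the endoplasmic reticulum, where G6pc works. In 129S1/SvImJ it had 249, 276.0, and 292 CPM on CD and 178.8, 183, and 201.0 on WD, with no overlap and a log2 fold change of -0.55 (SE 0.14, adjusted p = 0.0018). In PWK/PhJ it had 234, 255.7, and 259.5 CPM on CD and 149.6, 183, and 232 on WD, again with no overlap (-0.46, SE 0.14, adjusted p = 0.0086). The other 5 strains were not called, with estimates from -0.28 in A/J to 0.13 in CAST/EiJ, and the CAST/EiJ value lay 0.44 above the mean effect of the other 6 (adjusted p = 0.023).
Slc2a2 (ENSMUSG00000027690, chr3:28697903-28731359, plus strand), the low-affinity glucose transporter of the hepatocyte membrane, was called in a single strain. In 129S1/SvImJ it had 465, 522, and 589.9 CPM on CD and 345, 393.5, and 431 on WD, with no overlap (log2 fold change -0.41, SE 0.12, adjusted p = 0.007). Estimates elsewhere lay between -0.22 in WSB/EiJ and 0.05 in DBA/2J.

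Pck1 (ENSMUSG00000027513, chr2:173153048-173159273, plus strand), whose enzyme turns oxaloacetate into phosphoenolpyruvate, fell in 2 strains, and its range within a group was wide. PWK/PhJ mice had 240.3, 1051, and 1516 CPM on CD and 204, 326, and 498.6 on WD, a log2 fold change of -1.44 (SE 0.30, adjusted p = 7.4e-05). The lowest CD mouse, replicate 1, lay among the WD mice and the next CD mouse was at 878 CPM. In 129S1/SvImJ, mice had 628, 1145, and 2302 CPM on CD and 267, 542, and 1332 on WD (-1.06, SE 0.30, adjusted p = 0.005).
Pck1 was not called in the other strains. CAST/EiJ had 2492, 3482, and 3908 CPM on CD and 1568, 1945, and 2961 on WD, and 7 of the 8 WD mice were below every CD mouse, but its log2 fold change of -0.68 (SE 0.30) had an adjusted p of 0.1. DBA/2J and A/J had estimates of -0.64 each (SE 0.31 and 0.34, adjusted p = 0.16 and 0.24). C57BL/6J had 1141, 1723, and 2736 CPM on CD and 1308, 1695, and 3110.2 on WD (0.04, SE 0.29, adjusted p = 0.94), and WSB/EiJ spanned 1017 to 4692 CPM on CD and 1041 to 5015 on WD (0.13, SE 0.33, adjusted p = 0.89). C57BL/6J thus had a called decrease in G6pc beside a Pck1 estimate near 0, a difference between the genes that was not tested. The PWK/PhJ effect on Pck1 was lower than the mean of the other 6 strains by 0.97 (adjusted p = 0.028, among 16.3% of genes).

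Fbp1 was called in 3 strains and Pcx in 2. Fbp1 (ENSMUSG00000069805, chr13:62864753-62888282, minus strand), which removes a phosphate from fructose-1,6-bisphosphate, varied least of the 10 genes between mice of a group, with a coefficient of variation from 3.87% to 14.7%. In PWK/PhJ it had 862, 945, and 1024 CPM on CD and 525, 574, and 689.9 on WD, with no overlap and a log2 fold change of -0.68 (SE 0.07, adjusted p = 2.2e-12). In 129S1/SvImJ it had 1048, 1246, and 1364 CPM on CD and 890.5, 977, and 1038 on WD, with no overlap (-0.32, SE 0.07, adjusted p = 0.0005).
DBA/2J went the other way, with 617, 742, and 858 CPM on CD and 802, 849, and 1002 on WD (0.24, SE 0.07, adjusted p = 0.011). Without DBA/2J CD replicate 1 this was 0.19 (adjusted p = 0.072). Against the mean of the other 6 strains, Fbp1 was lower by 0.66 in PWK/PhJ (adjusted p = 7.4e-10), and higher by 0.42 in DBA/2J (adjusted p = 0.00016, among 7.77% of genes) and by 0.28 in C57BL/6J (adjusted p = 0.013, among 4.69%).
Pcx (ENSMUSG00000024892, chr19:4510472-4621752, plus strand) encodes the mitochondrial enzyme that makes oxaloacetate from pyruvate, which feeds both glucose production and the citrate used for lipid synthesis. It rose in C57BL/6J, from 306.5, 449.8, and 540.2 CPM on CD to 451, 712, and 798 on WD (0.65, SE 0.08, adjusted p = 1.2e-09), and 7 of 8 WD mice were above every CD mouse. In DBA/2J it rose from 479, 508, and 597 CPM to 596, 717, and 805 (0.41, SE 0.09, adjusted p = 0.0004). In A/J the CD mice had 649, 582, 589, 579, and 593 CPM and the WD mice 652, 696, and 754, which did not overlap, although the log2 fold change of 0.24 (SE 0.10) was not called (adjusted p = 0.12).
PWK/PhJ had the highest Pcx on CD, at 667, 790.1, and 1067 CPM, and 758, 836, and 884 CPM on WD (0.03, SE 0.09, adjusted p = 0.86). The CAST/EiJ estimate was -0.02 (SE 0.08, adjusted p = 0.9) and lay below the mean of the other 6 strains by 0.29 (adjusted p = 0.02), while the C57BL/6J effect lay above it by 0.50 (adjusted p = 0.00016). Pcx was called lower in no strain, and it was called higher in 2 of the 5 strains in which G6pc fell.

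**Figure D3:**
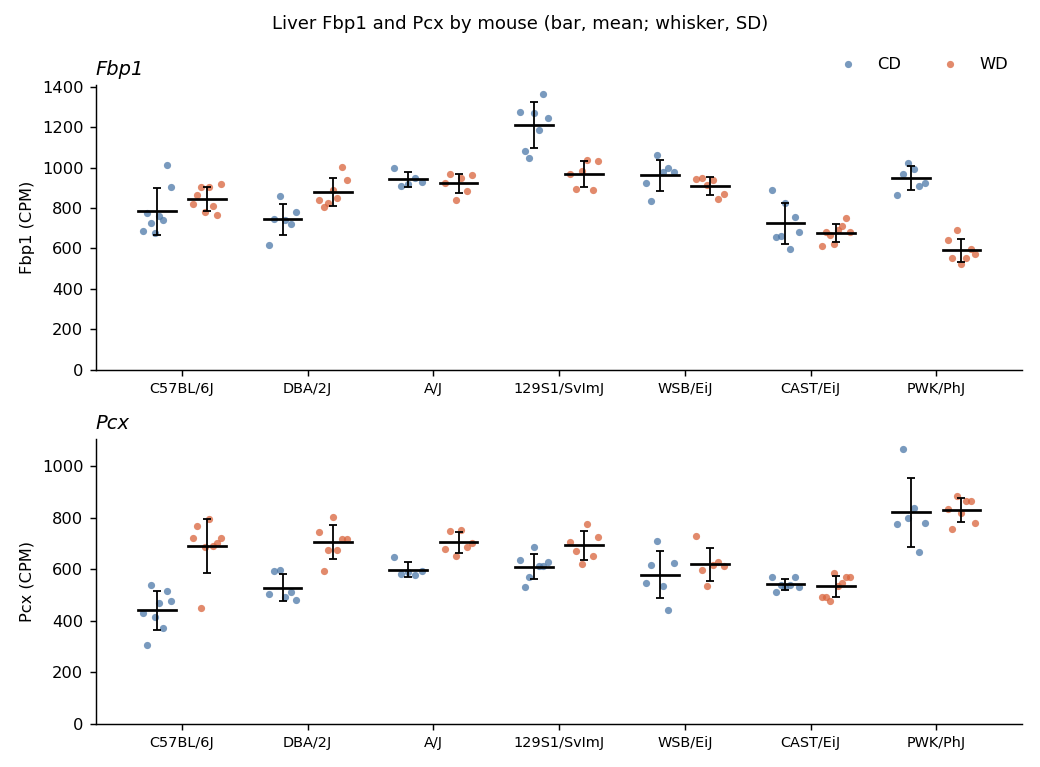
CPM of Fbp1 and of Pcx (vertical axis) in each mouse (points) by strain and diet, with the group mean as a bar and the SD as a whisker. Fbp1 on WD lies below all CD mice in PWK/PhJ and 129S1/SvImJ, and Pcx on WD lies above most CD mice in C57BL/6J and DBA/2J.

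Among the transcription regulators, the strains did not share a response. Ppargc1a (ENSMUSG00000029167, chr5:51454250-51567726, minus strand), the fasting-induced coactivator PGC-1α, was low throughout and fell in CAST/EiJ, from 9.66, 14.3, and 45.4 CPM on CD to 4.82, 7.89, and 11.1 on WD (log2 fold change -1.11, SE 0.22, adjusted p = 9.1e-05). Without CAST/EiJ CD replicate 5 and the 2 C57BL/6J mice it was -0.89 (SE 0.20, adjusted p = 0.00093). The CAST/EiJ effect was lower than the mean of the other 6 strains by 0.96 (adjusted p = 0.003). In 129S1/SvImJ the estimate was -0.52 (SE 0.24, adjusted p = 0.094), and the other 5 strains had estimates between -0.26 and 0.12.
Foxo1 (ENSMUSG00000044167, chr3:52268336-52353221, plus strand) was called in opposite directions in 2 strains. C57BL/6J mice had 24.0, 39.3, and 47.4 CPM on CD and 50.9, 57.3, and 63.9 on WD, with no overlap and a log2 fold change of 0.57 (SE 0.13, adjusted p = 0.0005). It was 0.48 (SE 0.12, adjusted p = 0.00092) without the mice that stood apart, and the effect was higher than the mean of the other 6 strains by 0.55 (adjusted p = 0.015).
CAST/EiJ mice had 48.5, 66.1, and 169.6 CPM of Foxo1 on CD and 49.9, 57.8, and 76.1 on WD, and the log2 fold change was -0.49 (SE 0.14, adjusted p = 0.0063). This call rested on 1 mouse, since without CAST/EiJ CD replicate 5 the value was -0.30 (adjusted p = 0.096), and by cohort the difference was 0.15, -0.07, and -0.79. A/J (0.33, adjusted p = 0.19) and WSB/EiJ (0.35, adjusted p = 0.16) had positive estimates that were not called. Exons of Foxo1 share 674 bases (7.78% of its exon length) with Gm20402 on the opposite strand, whose reads cannot be told apart from those of Foxo1 if the strand was not used in counting.

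Both genes at the top of the insulin pathway were estimated lower on WD in all 7 strains. Insr (ENSMUSG00000005534, chr8:3122061-3279617, minus strand), the insulin receptor, had small changes. In 129S1/SvImJ it fell from 98.9, 105.4, and 130.2 CPM on CD to 72.2, 83.5, and 89.5 on WD, with no overlap (log2 fold change -0.41, SE 0.09, adjusted p = 0.00014). In PWK/PhJ it fell from 94.3, 104.3, and 118.6 CPM to 80.0, 89.7, and 102.1 (-0.23, SE 0.09, adjusted p = 0.03), a call that was lost on leaving out any of 6 of the 13 mice. Estimates in the other strains lay between -0.21 and -0.11, that of CAST/EiJ was called without the mice that stood apart (-0.23, adjusted p = 0.025), and the mean over strains was -0.21 (SE 0.03, adjusted p = 5.8e-08).
Irs2 (ENSMUSG00000038894, chr8:10984681-11008458, minus strand), the insulin-repressed adaptor that couples the receptor to PI 3-kinase, fell most in CAST/EiJ. There it had 43.3, 82.1, and 125.3 CPM on CD and 20.6, 28.3, and 40.5 on WD, with no overlap (-1.32, SE 0.20, adjusted p = 7.2e-07). Without the mice that stood apart it was -1.19 (SE 0.20, adjusted p = 7.4e-06), by cohort it ranged from -1.90 to -0.67, and it was lower than the mean of the other 6 strains by 0.83 (adjusted p = 0.0063).
C57BL/6J mice had 24.0, 40.7, and 47.1 CPM of Irs2 on CD and 16.0, 22.1, and 40.9 on WD (-0.64, SE 0.20, adjusted p = 0.0093). DBA/2J mice had 16.3, 31.9, and 44.2 CPM on CD and 13.7, 17.7, and 26.9 on WD (-0.66, SE 0.23, adjusted p = 0.031), and 129S1/SvImJ mice had 18.9, 31.3, and 43.8 on CD and 15.7, 21.2, and 26.0 on WD (-0.57, SE 0.22, adjusted p = 0.045). The DBA/2J call was lost on leaving out any of 6 of 13 mice and the 129S1/SvImJ call for 10 of 13. A/J (-0.16, SE 0.24), WSB/EiJ (-0.52, SE 0.22), and PWK/PhJ (-0.40, SE 0.23) were not called (adjusted p = 0.76, 0.14, and 0.19). Exons of Irs2 share 162 bases (2.56% of its exon length) with 9530052E02Rik on the opposite strand.

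**Figure D4:**
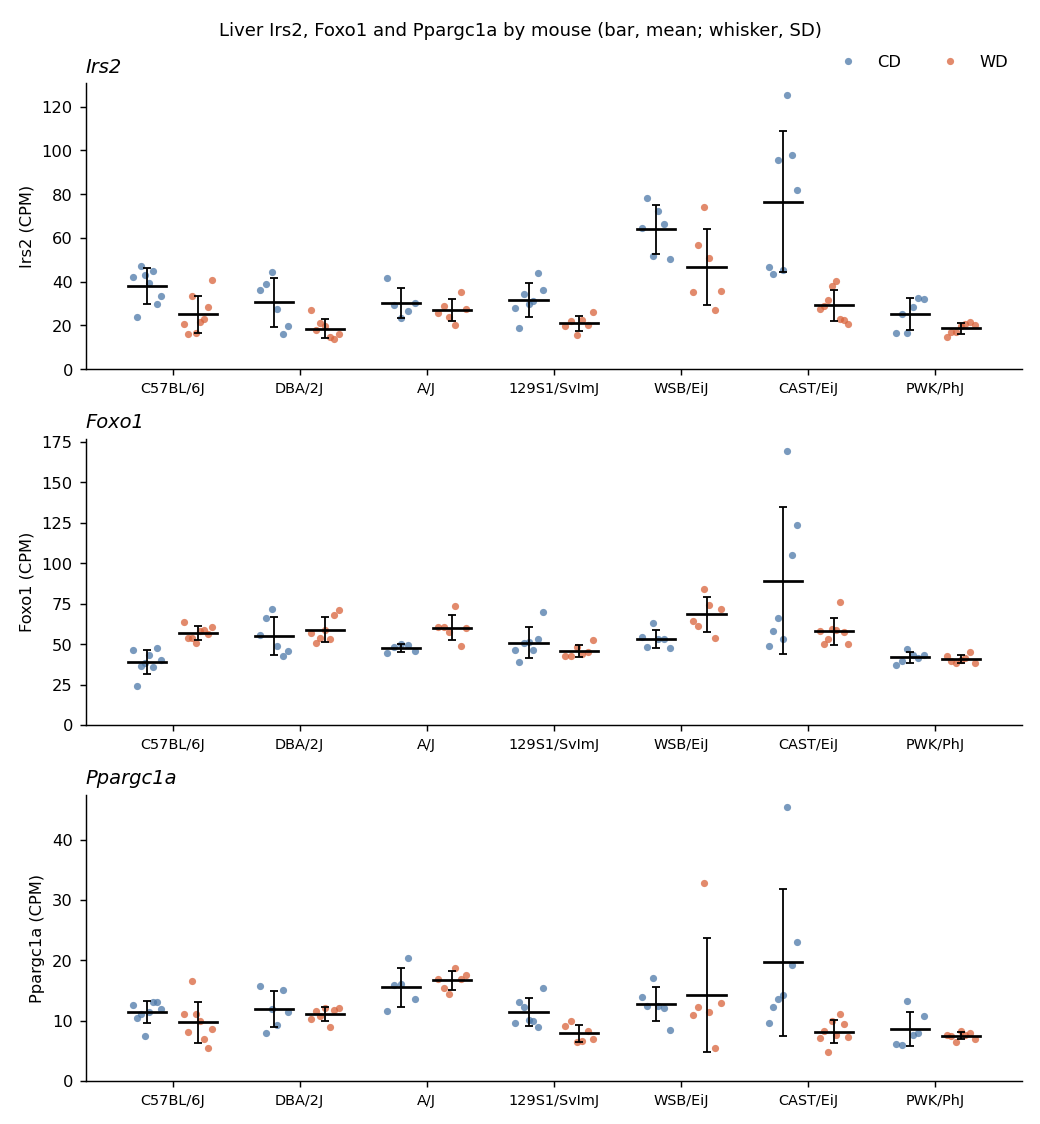
CPM of Irs2, Foxo1, and Ppargc1a (vertical axis) in each mouse (points) by strain and diet, with the group mean as a bar and the SD as a whisker. Irs2 on WD lies below all CD mice in CAST/EiJ, Foxo1 on WD lies above all CD mice in C57BL/6J, and the CAST/EiJ CD mice spread widely.

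The counts of genes whose diet effect in a strain differed from the mean of the other 6 were 6 of the 10 in CAST/EiJ (14.5% of all genes), 3 in C57BL/6J (4.69%), 2 in PWK/PhJ (16.3%), 1 in DBA/2J (7.77%), and 1 in 129S1/SvImJ (6.28%), and there was none in A/J (0.466%) or WSB/EiJ (0.947%). The counts in PWK/PhJ, DBA/2J, and 129S1/SvImJ are near these shares. For CAST/EiJ, G6pc and Slc37a4 lay above the mean of the others and Pcx, Ppargc1a, Foxo1, and Irs2 below it.

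The CD mice of CAST/EiJ differed among themselves, and they did so in several genes at once. For G6pc, replicates 1 to 7 had 518, 152, 1142, 438, 1475, 1439, and 1098 CPM. For Irs2, the same mice had 46.9, 43.3, 95.4, 45.3, 125, 98.0, and 82.1 CPM. Foxo1 was at 48.5, 57.9, 66.1, 52.9, 170, 105, and 124 CPM. Replicates 3, 5, 6, and 7 were above replicates 1, 2, and 4 in each of these genes and in Pck1. Replicates 1, 2, and 4 belonged to 3 different cohorts, and the higher 4 mice to 2 of them. Pdk4, a fasting-induced kinase that restrains pyruvate oxidation, was at 3.60, 3.87, 357, 8.92, 882, 504, and 534 CPM in the same order, and Igfbp1, a secreted protein strongly repressed by insulin, at 67.2, 92.8, 424, 148, 2101, 752, and 719.7. Pdk4 was between 4.19 and 13.0 CPM in the WD mice of this strain. The mean and SD of CAST/EiJ on CD therefore cover mice that were far apart, and the diet effects of this strain, those of Irs2, Ppargc1a, Pdk4, Igfbp1, and Got1 included, were measured against them. For Pdk4, replicates 1, 2, and 4 were within or below the WD range, so that the other 4 mice carry its decrease. The methods state 1 length of fast for all mice, and whether these 7 mice differed in feeding state was not tested.

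Genes of the pathway outside the 10 were counted on lists of known roles. These counts, and those of the cell markers below, were not tested against the shares of all genes called. Those shares ran from 3.97% (WSB/EiJ) to 14.5% (PWK/PhJ) lower on WD, and from 4.39% (A/J) to 15.1% (PWK/PhJ) higher. A low count on a list, such as 2 enzymes lowered where C57BL/6J had 11.9% of all genes lower, is therefore near the background. Of 24 other gluconeogenic enzymes and carriers, WD raised 5 and lowered 2 in C57BL/6J, raised 3 and lowered 9 in PWK/PhJ, raised 1 and lowered 6 in both 129S1/SvImJ and CAST/EiJ, raised 4 and lowered 1 in DBA/2J, raised 1 and lowered 3 in A/J, and lowered 4 in WSB/EiJ. Got1, the cytosolic aspartate aminotransferase, fell in 4 strains, with log2 fold changes of -1.94 in CAST/EiJ (SE 0.26, adjusted p = 2.2e-08), -1.44 in 129S1/SvImJ, -1.11 in PWK/PhJ, and -0.93 in DBA/2J. In C57BL/6J Got1 was at -0.49 (limma-voom adjusted p = 0.14), and at -0.62 (adjusted p = 0.045) without the mice that stood apart. Mpc2, a subunit of the mitochondrial pyruvate carrier, fell in 6 strains, most in PWK/PhJ (-0.59, SE 0.07, adjusted p = 2e-10). Gpt2, the mitochondrial alanine aminotransferase, rose in C57BL/6J (0.49), DBA/2J (0.44), A/J (0.41), and PWK/PhJ (0.53).

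Of 20 hormone and transcription regulators of gluconeogenesis, WD raised at most 3 in a strain and lowered 1 (C57BL/6J and A/J) to 7 (129S1/SvImJ and CAST/EiJ). Prkar1a, a regulatory subunit of protein kinase A, fell in all 7 strains, by 0.20 to 0.31. Cebpa, a transcription factor of the differentiated hepatocyte, fell in DBA/2J (-0.79, SE 0.12, adjusted p = 2.6e-07), 129S1/SvImJ (-0.42), and WSB/EiJ (-0.44). Klf15, a fasting-induced factor that promotes amino acid breakdown, rose in C57BL/6J (0.56, adjusted p = 0.0016) and fell in 129S1/SvImJ (-0.57, adjusted p = 0.004) and CAST/EiJ (-0.40, adjusted p = 0.045). Cebpb rose in C57BL/6J (0.66, adjusted p = 0.0079) and fell in CAST/EiJ (-0.55, adjusted p = 0.048). The CAST/EiJ calls of both genes were lost without the mice that stood apart, at -0.26 for Klf15 (adjusted p = 0.22) and -0.39 for Cebpb (adjusted p = 0.21), as was that of Foxo1, while the C57BL/6J calls were at 0.46 for Klf15 (adjusted p = 0.0073) and 0.59 for Cebpb (adjusted p = 0.02).

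Of 22 other insulin signalling genes, between 0 (WSB/EiJ) and 6 (CAST/EiJ) were called in either direction in a strain. For CAST/EiJ, 9.73% of all genes were called lower and 9.77% higher. The 3 genes called in 129S1/SvImJ do not exceed its background, where 13.6% of all genes were lower and 14.5% higher. Irs1, the adaptor that acts beside Irs2, fell in DBA/2J (-0.76), A/J (-0.76), and 129S1/SvImJ (-0.85), and Grb10, an adaptor that restrains the receptor, rose in PWK/PhJ (0.82), CAST/EiJ (0.76), and 129S1/SvImJ (0.57). In C57BL/6J Grb10 was at 0.35 (limma-voom adjusted p = 0.14), and at 0.42 (adjusted p = 0.033) without the mice that stood apart. Rictor, a subunit of the kinase complex mTORC2, fell in C57BL/6J (-0.49), DBA/2J (-0.41), and A/J (-0.40).
Of 5 other insulin-repressed genes, 1 to 3 fell in each strain, and 1, Sesn3, rose in CAST/EiJ (0.37, adjusted p = 0.006). Igfbp1 fell in 5 strains, with log2 fold changes of -2.53 in DBA/2J (SE 0.54, adjusted p = 0.00032), -2.33 in CAST/EiJ, -2.09 in 129S1/SvImJ, -1.79 in A/J, and -1.31 in C57BL/6J. In WSB/EiJ (-1.03, adjusted p = 0.25) and PWK/PhJ (-0.87, adjusted p = 0.2) it was not called. Mttp, which loads lipid onto apolipoprotein B, fell in 6 strains, and Pdk4 fell in C57BL/6J (-1.78, adjusted p = 0.03) and CAST/EiJ (-3.26, SE 0.73, adjusted p = 0.0005). The CAST/EiJ values of Pdk4 and Igfbp1 were -2.65 (adjusted p = 0.0042) and -1.89 (adjusted p = 0.0017) without the mice that stood apart, and they rest on the 4 CD mice with high levels of both genes.
The 9 insulin-induced genes were divided, with 2 raised and 5 lowered in 129S1/SvImJ and PWK/PhJ, 3 raised and 5 lowered in C57BL/6J, and 3 raised and 1 lowered in CAST/EiJ. Srebf1, the insulin-induced regulator of lipid synthesis, rose in 5 strains (in CAST/EiJ by 0.77, and 0.48 with an adjusted p of 0.069 without the mice that stood apart), for instance from 188 ± 93.6 to 408 ± 128 CPM in C57BL/6J (1.18, SE 0.21, adjusted p = 5.1e-06), and fell in 129S1/SvImJ, from 551.7 ± 107 to 342 ± 64.5 (-0.69, SE 0.23, adjusted p = 0.019). Acly, which makes cytosolic acetyl-CoA, fell in 6 strains, with -1.75 in PWK/PhJ and -1.68 in WSB/EiJ. In 129S1/SvImJ, where G6pc fell most, both Srebf1 and Acly fell.
The markers of other cells moved in some of the same strains. Of 9 leukocyte markers 7 rose in 129S1/SvImJ, 5 in PWK/PhJ, and 5 in C57BL/6J, and of 7 stellate cell markers 5 rose in PWK/PhJ and 4 in 129S1/SvImJ and C57BL/6J. The summed stellate markers went from a median of 152.8 to 458 CPM in PWK/PhJ and from 236.8 to 349.9 in 129S1/SvImJ. Their part in the decreases of the 10 genes was not tested.

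Within groups, where strain and diet are constant, pairs of the 10 genes varied together from mouse to mouse. After the group means of log2 CPM were removed from the 93 mice, 17 of the 45 pairs passed at an adjusted p below 0.05 (permutation test within groups, 100000 permutations, Benjamini-Hochberg over 45 pairs), 16 with a positive r and 1 with a negative r. When cohort means were also removed, 10 passed. Pairs of other genes were not tested, so the share of pairs to expect is not known.
The pair with the highest r was that of both glucose-6-phosphate and glucose carriers, Slc37a4 and Slc2a2 (r = 0.66, rho = 0.61, permutation adjusted p = 0.00011), with r = 0.56 without the 2 farthest mice and a positive r in 13 of the 14 groups. Pck1 varied with Irs2 (r = 0.49, rho = 0.49, permutation adjusted p = 0.00011) and with Foxo1 (r = 0.40, rho = 0.42, permutation adjusted p = 0.00011), and both held without the CAST/EiJ CD mice (r = 0.49 and 0.47). Ppargc1a varied with Foxo1 (r = 0.54, rho = 0.44, permutation adjusted p = 0.00011), which was 0.33 without CAST/EiJ CD (adjusted p = 0.021).
G6pc varied with Pck1 (r = 0.37, rho = 0.35, permutation adjusted p = 0.0051, r = 0.35 without the 2 farthest mice). Its r with Irs2 of 0.38 (rho = 0.31, permutation adjusted p = 0.0064) was 0.25 without CAST/EiJ CD (adjusted p = 0.082). The negative pair that passed over all mice was Slc2a2 and Irs2 (r = -0.43, rho = -0.47, permutation adjusted p = 0.0023, r = -0.50 without the 2 farthest mice), and it was -0.32 (adjusted p = 0.12) after removal of cohort means. Without the 3 mice that stood apart, 12 pairs passed, 9 positive and 3 negative. Among the positive pairs lost was Slc37a4 with Pcx (r = 0.44, and 0.08 without them, adjusted p = 0.52). Slc37a4 with Irs2 (r = -0.21 in all mice and -0.37 without them, permutation adjusted p = 0.012) and Slc2a2 with Pck1 (r = -0.21 and -0.26, permutation adjusted p = 0.027) were negative pairs that passed without these mice. Mice of a group share a strain and diet but not a library, and a shared pattern does not show shared control.

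**Figure D5:**
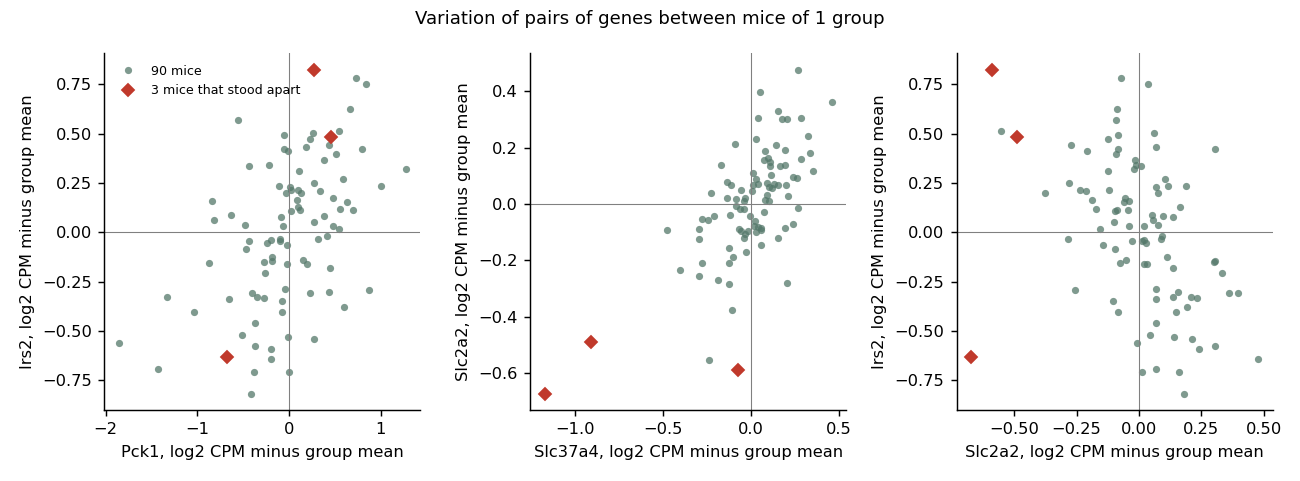
Log2 CPM minus the group mean in each of the 93 mice for Irs2 against Pck1, Slc2a2 against Slc37a4, and Irs2 against Slc2a2, with diamonds for the 3 mice that stood apart. Points rise together in the first and second panels (r = 0.49 and 0.66) and go opposite ways in the last (r = -0.43), where 1 of the 3 mice lies away from the trend.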

How the data were processed

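Liver RNA of 93 mice was sequenced on the BGISEQ-500 and mapped with STAR (2.7.1a in the submitters' processing notes) to the C57BL/6J genome (GRCm38, mm10). The table the authors deposited holds unnormalized read counts per gene, with 1 column for each mouse. The annotation release and the strand setting of the counting are not given in the sources used here. Gene names, positions, and exon lengths came from GENCODE, and promoters from RefSeq.

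The analysis ran in R 4.3.3 and used edgeR 4.0.16 (filterByExpr, minimum count 10, TMM factors) and limma 3.58.1 (voom, 1 mean for each of the 14 groups). P-values were two-sided and adjusted by Benjamini-Hochberg over 19110 genes for each comparison, with 0.05 as the threshold. All adjusted p-values of diet and strain effects are from this limma-voom fit. CPM used TMM library sizes. Pairs of genes were tested by permutation on log2 CPM with a prior count of 2. Each mouse had 40020424 to 49894856 reads on genes. The fit and the permutation test were tested on simulated data.

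The 10 genes and the lists were chosen with earlier results of these data known. Named in the text were the 10 genes, up to 4 genes of each list that were called in the most strains (some are not reported here), and the 3 genes most like G6pc and Pck1 over the group means. The display of Pdk4, Igfbp1, and Got1 by mouse was chosen after their values were seen. Mice were grouped by the labelled strain and diet. Alternatives were edgeR's quasi-likelihood test, DESeq2 1.42.0, upper-quartile factors, all genes with any count, cohort within strain, RNA integrity number (RIN), quality weights, separate fits, and leaving out each mouse. Leaving out 3 mice, or the CAST/EiJ CD mice, was chosen after seeing the data.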

Additional observations from a re-analysis of the deposited data

Results flagged for a closer look

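Of 140 sets of values (10 genes in 14 groups), 10 had 1 mouse at one end that was far from the others of its group, judged by its gap over the range of the group, a test that flags about 1 set in 20 by chance. C57BL/6J CD replicate 2 was such a mouse for Slc37a4 (62.9 CPM), Slc2a2 (217.6 CPM), and Foxo1 (24.0 CPM), and C57BL/6J WD replicate 3 for Slc37a4 (69.8 CPM) and Pcx (451.4 CPM), in each case as the lowest mouse. The RIN of these mice was 8.7 and 8.8. In C57BL/6J CD replicate 2 the summed cholangiocyte markers were at 66.5 CPM against 9.03 to 21.7 in the other CD mice and the summed adipocyte markers at 7.56 against 0.109 to 0.791. In C57BL/6J WD replicate 3 the cholangiocyte markers were at 47.5 CPM against 10.6 to 14.0. Their part in the low values was not tested. The other such values were Pck1 in PWK/PhJ CD replicate 1 (240.3 CPM, lowest), Pcx in A/J CD replicate 1 (648.8 CPM, highest), Ppargc1a in C57BL/6J CD replicate 4 (7.45 CPM, lowest), Slc2a2 in WSB/EiJ WD replicate 4 (311.5 CPM, lowest), and Foxo1 in CAST/EiJ WD replicate 6 (76.1 CPM, highest).

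The diet effect differed between strains in 8 genes by the limma-voom F test over the 7 strains, with adjusted p-values of 0.00016 for G6pc, 0.044 for Slc37a4, 2.1e-10 for Fbp1, 0.019 for Pck1, 3.3e-05 for Pcx, 0.015 for Ppargc1a, 0.0002 for Foxo1, and 0.044 for Irs2.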

How the results depend on the processing

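Of 178 alternative values of the counts of called genes and pairs, 171 stayed within 1.5 times of the reported count. The number of the 10 genes called went from 1 to 3 in A/J with quality weights and with a separate fit, from 0 to 2 in WSB/EiJ with quality weights, and from 5 to 3 in PWK/PhJ with all genes of any count tested, which also took the F test of equal diet effects from 8 to 5 genes. Pairs went from 17 to 10 with cohort means removed. On leaving out each mouse, the number called ranged from 2 to 4 in DBA/2J (2 without DBA/2J CD replicate 1). Of 1850 alternative values of single genes, 1764 kept their side of the threshold and their direction where called, 60 lost the call, 26 gained one, and no called value changed direction. The Pck1 log2 fold change in 129S1/SvImJ was lost with any count (-1.09, adjusted p = 0.09), as was the Pck1 log2 fold change in PWK/PhJ (-1.43, adjusted p = 0.063). The Pck1 log2 fold change in CAST/EiJ was called in a separate fit (adjusted p = 0.0055). Cohort within strain could not give the test of strains on CD, and separate fits could not give the F tests. No paired analysis was possible, because each mouse ate a single diet and its liver was taken once. The labels carry no replicate numbers, and those used here number the mice within each group. The cause of these shifts was not tested. The largest SE did not belong to the gene with the lowest level, and SE was not compared with the number of reads over all genes. The SE of the log2 fold change within a strain was largest for G6pc, at 0.35 (C57BL/6J) to 0.42 (A/J). For Ppargc1a, the gene with the lowest level, it was 0.20 (C57BL/6J) to 0.25 (PWK/PhJ).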

Other observations

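The genes whose 14 group means of log2 CPM were most like those of G6pc, among 11149 genes, were E130102H24Rik (r = 0.94), Sos1 (r = 0.91), and Ints6 (r = 0.90), and those most like Pck1 were Rbm8a (r = 0.92), Ccdc127 (r = 0.92), and Cct6a (r = 0.91). These values are descriptions over group means. Among the CAST/EiJ CD mice, Got1 varied as Pdk4 and Igfbp1 did, with 312, 462, 652, 205, 1516, 1005, and 700.0 CPM in replicates 1 to 7. Scd1, a fatty acid desaturase induced by insulin, rose in 5 strains, most in WSB/EiJ (1.26 on the log2 scale), and its estimate in PWK/PhJ was 0.04 (limma-voom adjusted p = 0.94).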
